A study of Mus musculus with 2 samples.

Results

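The Mir29 family of mouse miRNA genes has 4 members, Mir29a, Mir29b-1, Mir29b-2 and Mir29c, and they were taken by name from the 2202 miRNA genes counted in small RNA libraries of C2C12 myotubes. All 4 were found by their Ensembl identifiers. C2C12 is an established mouse myoblast line from C3H thigh muscle, which fuses into multinucleated myotubes when it is differentiated in culture. There were 2 libraries in a single group, biological replicates 1 and 2, made from separate biosamples of this line after 72 h of differentiation. The labels list no treatment and no undifferentiated cells, so the members were compared with each other, with other miRNA genes, and between the 2 libraries. Nothing in the labels says how far apart the cultures were kept, so the spread given here is that between these 2 samples of 1 cell line.

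MicroRNAs are short RNAs cut from hairpin precursors, and the bases 2 to 8 of the mature strand, the seed, do most of the pairing with target mRNAs. The Mir29 family is known for repressing collagens and other extracellular matrix genes and is described as antifibrotic in several tissues. In muscle, the transcription factor Yy1 holds Mir29 transcription down in myoblasts, Mir29 represses Yy1 in turn as the cells differentiate, and the family is counted among the miRNAs that promote myogenic differentiation.

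The family is transcribed from a pair of clusters on different chromosomes, each with a Mir29b gene first and its partner downstream. On GRCm38 (mm10), Mir29a (ENSMUSG00000065610.1) lies at chr6:31062660-31062747 and Mir29b-1 (ENSMUSG00000065604.2) at chr6:31063023-31063093, both on the minus strand and 275 bases apart. Mir29a overlaps no other annotated gene. The last 2 bases of the Mir29b-1 interval overlap the exon of Gm27019, a long non-coding RNA gene on the same strand. Mir29b-2 (ENSMUSG00000065412.3) lies at chr1:195037040-195037120 and Mir29c (ENSMUSG00000065548.1) at chr1:195037547-195037634, both on the plus strand and 426 bases apart. Both lie wholly within the non-coding gene A330023F24Rik on the same strand. They overlap an exon of 1 of its transcripts, which is annotated as a retained intron. On the opposite strand, both overlap an untranslated exon stretch of 1 transcript of the complement regulator gene Cd46. No read was counted on the opposite strand of any of the 4 genes in either library, so the 2 chromosome 1 members showed no counted reads from the Cd46 strand.

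The mature 3p strands are shown first because they define the family and decide which reads can be placed at 1 gene. Sequences are from RefSeq (GRCm38.p6), which held all 4 members with hairpins identical to the annotation the counts were made on. They run 5′ to 3′, and capitals mark the seed.
miR-29a-3p (Mir29a): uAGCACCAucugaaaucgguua
miR-29c-3p (Mir29c): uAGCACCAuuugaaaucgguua
miR-29b-3p (Mir29b-1 and Mir29b-2): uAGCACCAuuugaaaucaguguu
The 3 mature strands share the seed AGCACCA, and none of the other names among 1679 mature mouse miRNAs in the RefSeq table carried it. With positions counted from 1 at the 5′ end, miR-29a-3p and miR-29c-3p differ by the single substitution C10U over 22 bases. From miR-29c-3p to miR-29b-3p there are 3 substitutions over the 22 bases compared, G18A, U21G and A22U. The first 17 bases of miR-29c-3p and miR-29b-3p are therefore the same, and the first 9 are the same in all 3.

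The opposite 5p strands, which are usually the minor product of these hairpins, are not shared between genes, and their seeds differ.
miR-29a-5p: aCUGAUUUcuuuugguguucag
miR-29c-5p: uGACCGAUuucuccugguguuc
miR-29b-1-5p: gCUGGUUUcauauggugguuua
miR-29b-2-5p: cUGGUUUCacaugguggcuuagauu
The 5p strands of the Mir29b genes start 1 base apart. From the second base of miR-29b-1-5p on, they differ at 2 of 21 positions, U11C and U19C, counted from the 5′ end of miR-29b-1-5p. Of the 5p seeds, only that of miR-29b-2-5p occurred in a mature strand outside the family, miR-6338.

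The hairpins of the chromosome 6 pair show how far the shared sequence reaches. Capitals mark bases in an exact run of 18 or more bases that also occurs, on either strand, in another annotated miRNA hairpin.
Mir29a: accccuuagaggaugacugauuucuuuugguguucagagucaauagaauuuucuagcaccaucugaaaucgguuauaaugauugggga
Mir29b-1: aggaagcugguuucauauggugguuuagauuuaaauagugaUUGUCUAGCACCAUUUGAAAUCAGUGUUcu
None of the 88 bases of Mir29a lay in such a run. In Mir29b-1 28 of 71 bases did, in Mir29b-2 25 of 81, and in Mir29c 22 of 88, and the partners were always other Mir29 genes. The longest run common to the 2 Mir29b hairpins was 25 bases and held the whole 23-base mature 3p strand. The run common to Mir29c and Mir29b-1 was 22 bases and that common to Mir29c and Mir29b-2 was 19, but both end inside the 3p strand, at the base before G18A. A read of the whole miR-29b-3p strand thus has 2 equal positions, whereas whole reads of miR-29a-3p, miR-29c-3p and all 4 of the 5p strands occur in 1 annotated hairpin each. Over all 2202 hairpins, 1179 (53.5%) shared a run of 18 bases with another, and of the 274 detected genes 92 (33.6%) did. Only annotated hairpins were searched, not the rest of the genome.

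**Figure D1:**
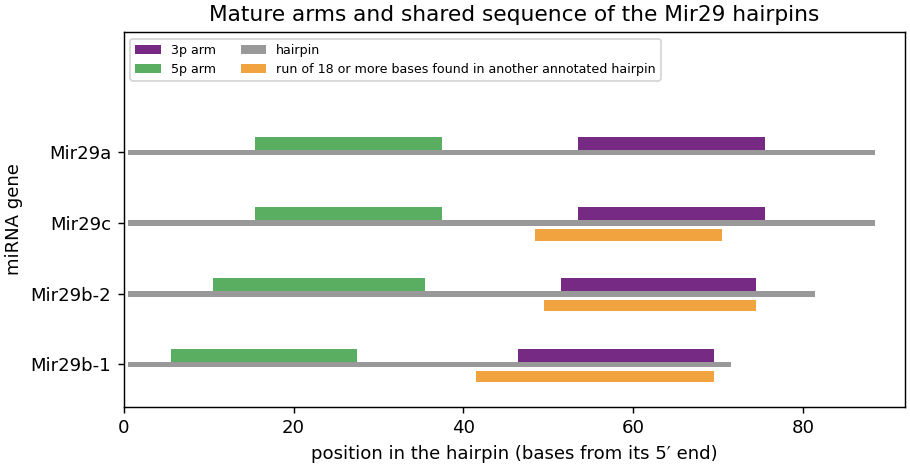
Each grey line is a Mir29 hairpin, drawn by position in bases from its 5′ end, with the 5p arm in green, the 3p arm in purple and the stretch found in another annotated hairpin, in runs of 18 or more bases, in orange. The orange stretch covers the whole 3p arm of both Mir29b genes, ends inside the 3p arm of Mir29c, and is absent from Mir29a.

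By the layout of the tables, reads counted at a gene had 1 position. Reads that mapped to several places stand in a line of their own, which is not split by gene. It held 3378438 reads in replicate 1, which were 22.01% of the library, and 3295854 or 17.9% in replicate 2. That came to 69.6 and 71.9 reads for each read counted at a Mir29 gene. The counts of Mir29b-1 and Mir29b-2 below are therefore counts of reads placed uniquely in those hairpins, and are no measure of mature miR-29b-3p. Which arm each counted read came from is not given in the tables.

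Replicate 1 held 7581366 reads on the sense strand of miRNA genes and replicate 2 held 9865298, and levels are counts per 1000000 of these reads (CPM). A count of 3 reads, the limit that a count of 0 allows, equals 0.396 and 0.304 CPM. Intervals and limits here cover counting error only, since the labels name no molecular identifiers. The muscle identity of the cells showed mainly in Mir206, at 340841 and 416794 CPM. The marker list of 5 myomiRs, all detected, took 35.5% and 42.8% of miRNA reads. Nearly all of that was Mir206, and Mir486 was lowest, at 31.1 and 30.7 CPM. Mir133b is on this list, but the Mir1a and Mir133a genes, given below, are not, and those were low. Of 7 neuron markers, 5 had no read in either library, the Mir124a genes among them, and 1, Mir153, was detected at 84.4 and 87.7 CPM. The Mir124a genes share a mature strand, as do the Mir9 genes on this list. Their counts leave out reads with several positions, so they say little about the mature strands. None of 5 epithelial markers was detected, with Mir200a and Mir429 at 0 and a sum of 4.35 and 2.13 CPM, and Mir122 of liver had 8 and 4 reads. Of 5 blood markers 2 were detected, led by Mir142, and the list summed to 105 and 183 CPM. The endothelial Mir126a stood at 217 and 42.9 CPM.

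Mir29a carried nearly all of the family's counted reads. It had 46503 reads (6134 CPM) in replicate 1 and 44286 reads (4489 CPM) in replicate 2, a mean of 5311 ± 1163 CPM (SD, n = 2). That made it the 23rd most abundant miRNA gene by mean CPM, 25th in replicate 1 and 22nd in replicate 2. Mir29c, whose mature strand differs from that of Mir29a by 1 base, had 1954 reads (258 CPM) and 1383 reads (140 CPM), a mean of 199 ± 83.1 CPM (SD, n = 2), and ranked 117th. In both libraries the level of Mir29a lay far above that of Mir29c, and their values did not overlap. The data are from whole cultures, so fewer cells of a kind and less RNA per cell cannot be told apart in any of these levels.

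The 2 Mir29b genes were low. Mir29b-2 had 61 reads (8.05 CPM) and 103 reads (10.4 CPM), a mean of 9.24 ± 1.69 CPM (SD, n = 2) and rank 218. Mir29b-1 had 47 reads (6.20 CPM) and 62 reads (6.28 CPM), a mean of 6.24 ± 0.0603 CPM (SD, n = 2) and rank 236. Both passed the detection rule of 2 CPM in each library, as did Mir29a and Mir29c, so 4 of 4 members were detected, beside 12.4% of all 2202 genes.

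**Figure D2:**
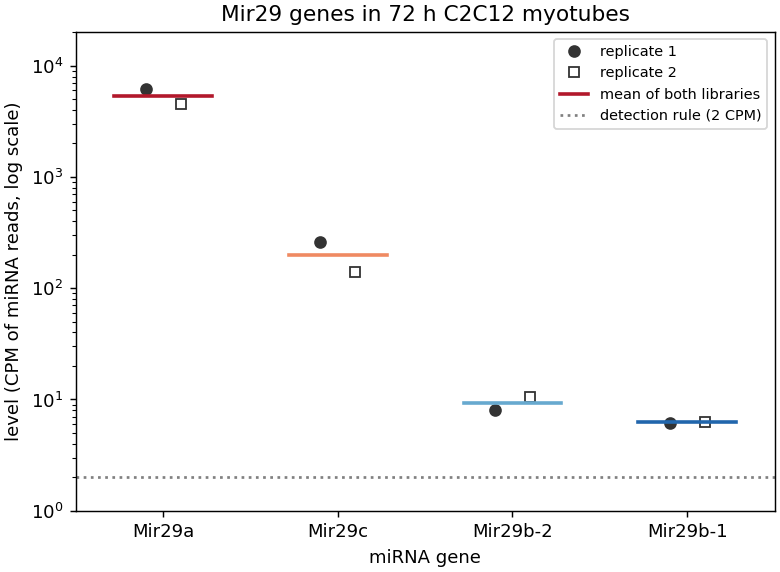
The level of each Mir29 gene in CPM of miRNA reads, on a log scale, with replicate 1 as filled circles, replicate 2 as open squares, the mean as a coloured bar and the 2 CPM detection rule as a dotted line. Mir29a stands at 4489 and 6134 CPM, Mir29c at 140 and 258 CPM, and both Mir29b genes between 6.20 and 10.4 CPM.

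The order Mir29a, Mir29c, Mir29b-2, Mir29b-1 was the same in both libraries. The last step of it was not settled by counting in each library. Mir29b-2 gave 56.5% of the reads of the Mir29b genes in replicate 1, with a 95% exact Clopper-Pearson interval of 46.6% to 66.0% that includes equal shares. In replicate 2 it gave 62.4%, with an interval of 54.6% to 69.8%. The log2 ratio of Mir29b-2 over Mir29b-1 was 0.55 ± 0.25 (SD, n = 2).

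As a family, the 4 genes made up 0.641% of the miRNA reads of replicate 1 and 0.465% of those of replicate 2, or 5526 ± 1244 CPM (SD, n = 2). Mir29a made up 95.8% and 96.6% of the family's counted reads and Mir29c 4.02% and 3.02%. The Mir29b genes together made up 0.222% (95% exact Clopper-Pearson interval 0.182% to 0.268%) and 0.360% (0.307% to 0.419%). These shares leave out the reads that mapped to several places.

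**Figure D3:**
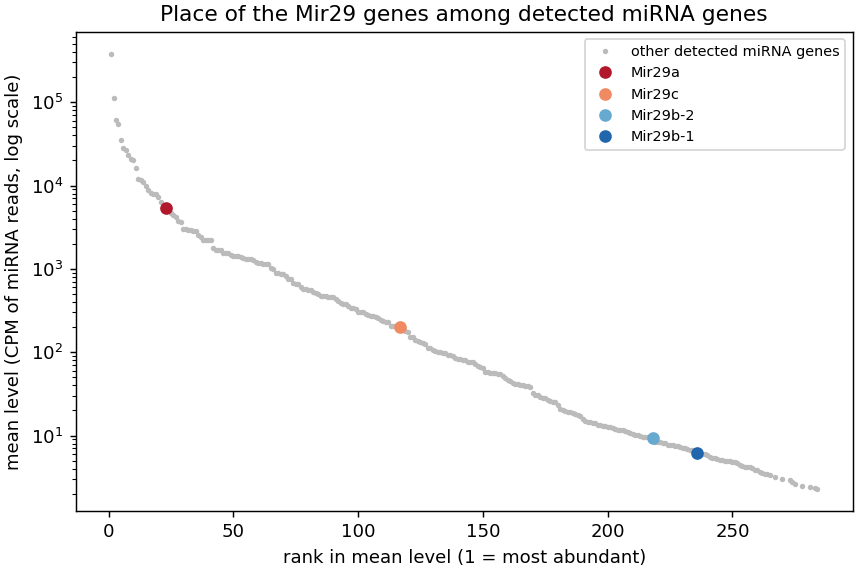
The mean level of each of the 274 detected miRNA genes in CPM, on a log scale, against its rank, with the Mir29 genes in colour. Mir29a sits at rank 23, Mir29c at 117, Mir29b-2 at 218 and Mir29b-1 at 236.

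The genes nearest to each member in the plane of log2(CPM + 1) in the 2 libraries give a sense of these levels. Likeness over 2 libraries is only likeness in level and in 1 difference. Nearest to Mir29a were Mir17 (6624 and 3652 CPM; distance 0.32), Mir188 (4703 and 4136 CPM; 0.40) and Mir30a (6120 and 6588 CPM; 0.55), and its neighbours by mean were Mir31 above and Mir17 below. Mir29c was nearest to Mir574 (266 and 146 CPM; distance 0.07), Mir450b (280 and 132 CPM; 0.14) and Mir148b (218 and 138 CPM; 0.24), and stood between Mir24-1 and Mir15b by mean. Mir29b-2 was nearest to Mir6994, Mir378b and Mir6539, at 0.13, 0.19 and 0.31, between Mir378b and Mir7j by mean. Mir29b-1 was nearest to Mir3097, Mir3075 and Mir669l, at 0.11, 0.24 and 0.25, between mmu-mir-3535 and Mir301b by mean. Mir29a and its mean neighbour Mir31 (5419 ± 5545 CPM, SD, n = 2) did not differ beyond their spread, and neither did Mir29a and Mir17 (5138 ± 2102 CPM).

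Within both clusters the Mir29b gene was far below its partner. Mir29a exceeded Mir29b-1 by 979-fold in replicate 1 and 709-fold in replicate 2, a log2 ratio of 9.70 ± 0.33 (SD, n = 2). Mir29c exceeded Mir29b-2 by 31.8-fold and 13.4-fold, a log2 ratio of 4.37 ± 0.88 (SD, n = 2). Mir29b-1 reads were 0.101% of the chromosome 6 cluster in replicate 1 (95% exact Clopper-Pearson interval 0.0742% to 0.134%) and 0.140% in replicate 2 (0.107% to 0.179%). Mir29b-2 reads were 3.03% (2.32% to 3.87%) and 6.93% (5.69% to 8.34%) of the chromosome 1 cluster. The Mir29b genes of the clusters had counts of like size, while Mir29a over Mir29c was 23.8-fold and 32.0-fold, a log2 ratio of 4.79 ± 0.30 (SD, n = 2).

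These distances were set beside other neighbours. Among 55 pairs of adjacent miRNA genes on 1 strand within 10 kb with both genes detected, the median absolute log2 ratio was 2.92 and the upper quartile 4.43. Mir29a and Mir29b-1 were the furthest apart of the 55 by mean, at 9.70, ahead of Mir100 and Mirlet7a-2 at 9.38, and Mir29c and Mir29b-2 came 15th, at 4.37. With pairs in which only 1 gene was detected included, Mir29a and Mir29b-1 were 4th of 84.

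A closer comparison is with pairs of the same build, in which 1 gene holds a whole mature strand that also occurs in another annotated hairpin and its adjacent neighbour, within 10 kb and detected, holds none. There were 17 such pairs outside the family, and in 15 of them the copy gene was below its neighbour in both libraries. The median log2 ratio was -4.29, and no copy gene was above its neighbour in both. The neighbour had to be detected and the copy gene did not, which favours copy genes that are below. With both genes detected there were 16 such pairs, with 14 copy genes below in both libraries and a median of -3.93. Low counts beside a partner were thus common among these pairs. Mir29b-1 against Mir29a had the lowest mean, at -9.94 and -9.47, but Mirlet7a-2 against Mir100, at -9.51 and -9.25, overlapped it. Mirlet7c-2 against Mirlet7b, at -8.26 and -9.12, and Mirlet7c-1 against Mir99a, at -8.65 and -8.42, came next, and these 3 copies belong to the large let-7 family. Mir29b-2 against Mir29c lay near the middle, with 8 of the 17 lower. A shorter list of 12 pairs followed another rule. It set a copy gene beside a chosen partner of its cluster, which need not be adjacent, and left out the let-7 genes and other pairs. Of these, 9 had a detected partner, with a median of -3.19, none lower than Mir29b-1 and 2 lower than Mir29b-2. The standing of Mir29b-2 thus depended on which pairs were compared. The search over all adjacent pairs was added after the values were seen, and no test was made.

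**Figure D4:**
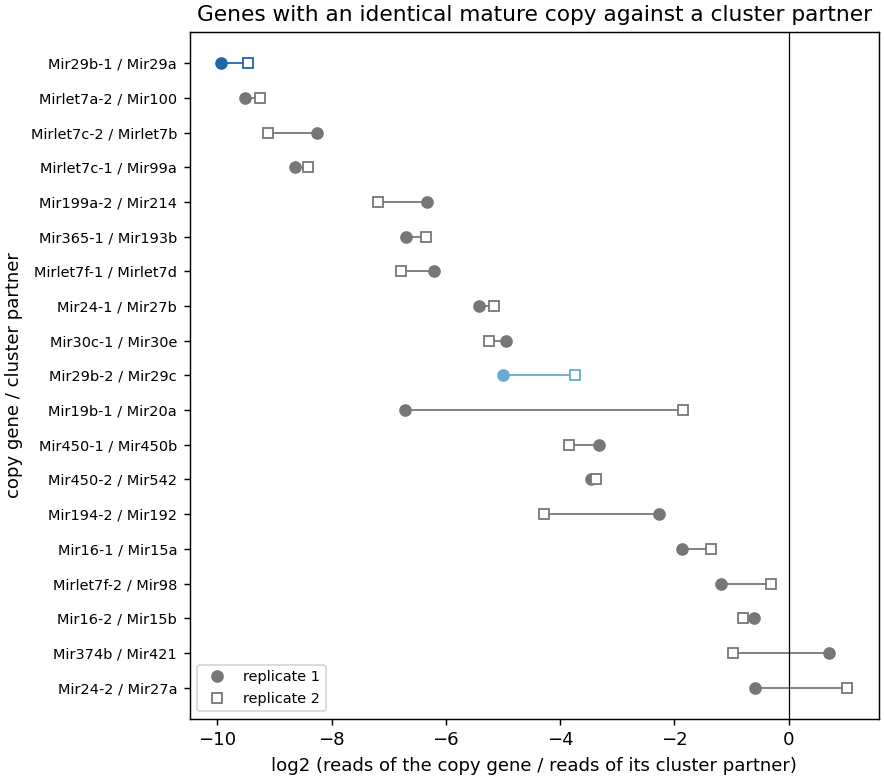
The log2 ratio of reads between a gene with a whole mature strand found in another hairpin and its adjacent detected neighbour, for every such pair, with replicate 1 as filled circles and replicate 2 as open squares. Mir29b-1 over Mir29a, in dark blue, lies at -9.94 and -9.47, beside Mirlet7a-2 over Mir100 at -9.51 and -9.25, and Mir29b-2 over Mir29c, in light blue, lies at -4.99 and -3.74.

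Genes tied to the same biology gave the setting. Of 25 miRNA genes linked to fibrosis and TGF-beta signalling, 20 were detected, together 16.6% of the miRNA reads of replicate 1 and 10.1% of those of replicate 2. Mir21a, described as profibrotic, led with 82317 and 39501 CPM. Mir143 followed with 46403 and 24746 CPM, the muscle miRNA Mir133b with 13610 and 10568 CPM, and Mir30a with 6120 and 6588 CPM. Mir30d stood at 3741 ± 897 CPM, Mir24-2 at 3046 ± 1281 CPM, Mir214 at 2844 ± 685 CPM and Mir30e at 2835 ± 604 CPM (SD, n = 2). Mir24-2 holds a mature strand found in another hairpin. Its count, and so the sum of the list, leaves out reads with several positions. Against this list Mir29a was above Mir30d in both libraries. Beside Mir30a it was level in replicate 1, at 6134 against 6120 CPM, and lower in replicate 2, at 4489 against 6588 CPM. Mir29c was below the 8 genes named here, the most abundant of the list, in both libraries. Its mean of 199 CPM was close to the median of the 25 listed genes, 201 CPM.

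Of 6 muscle miRNA genes linked to Yy1, 3 were detected, and Mir133b is on both lists. Mir206, a skeletal muscle miRNA, had 340841 and 416794 CPM, and Mir133b stood above Mir29a in both libraries. Mir1a-1 (3.03 and 2.84 CPM), Mir1a-2 (4.22 and 1.82 CPM), Mir133a-1 (1.19 and 2.84 CPM) and Mir133a-2 (1.06 and 1.01 CPM) were low. The Mir1a genes share a mature strand, as do the Mir133a genes, and their counts leave out reads with several positions as those of the Mir29b genes do.

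Between the libraries, Mir29a and Mir29c were both lower in replicate 2 and the Mir29b genes did not pass the test. Mir29c was 1.80-fold lower in replicate 2, a log2 difference of -0.85 (95% exact interval -0.95 to -0.75; adjusted p = 3.01e-63). Mir29a was 1.34-fold lower, at -0.42 (-0.44 to -0.40), with an exact p below the range of the software. Mir29b-2 gave 0.40 (-0.06 to 0.89; exact binomial test, adjusted p = 0.136) and Mir29b-1 gave 0.05 (-0.52 to 0.63; exact binomial test, adjusted p = 0.963). The interval of Mir29b-1 includes a fall as large as that of Mir29a. That of Mir29b-2 does not, and it includes a rise of that size. Both rest on few reads, 108 in replicate 1 and 165 in replicate 2 for the 2 genes together. These p-values are from the exact two-sided binomial test on reads, scaled by TMM and adjusted by the Benjamini-Hochberg method across the 415 genes tested. The test compares these libraries, not conditions.

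So 2 of 4 members differed by more than counting error, beside 55.7% of all genes tested, and both were higher in replicate 1, beside 30.4% of all genes. Of the 274 detected genes, which include the 4 members, 202 passed the test. Over the 274 detected genes the median absolute log2 difference was 0.52, with quartiles of 0.25 and 0.94, and all 4 members lay below the upper quartile. Mir29a lay above 41.2% of detected genes, Mir29c above 70.8%, Mir29b-2 above 39.4% and Mir29b-1 above 3.28%. Among the fibrosis-linked genes 20 of 23 tested passed the test, 9 with more reads in replicate 1 and 11 with more in replicate 2, and their median log2 difference was 0.14. Among the Yy1-linked genes 4 of 6 differed, 2 in each direction, with a median of -0.06. Of the genes in the shorter list of cluster pairs 17 of 22 did, 11 of them with more reads in replicate 1, with a median of -0.20. The median over all 415 genes was -0.02. Since abundant genes pass at smaller differences, such counts do not compare lists that differ in abundance.

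**Figure D5:**
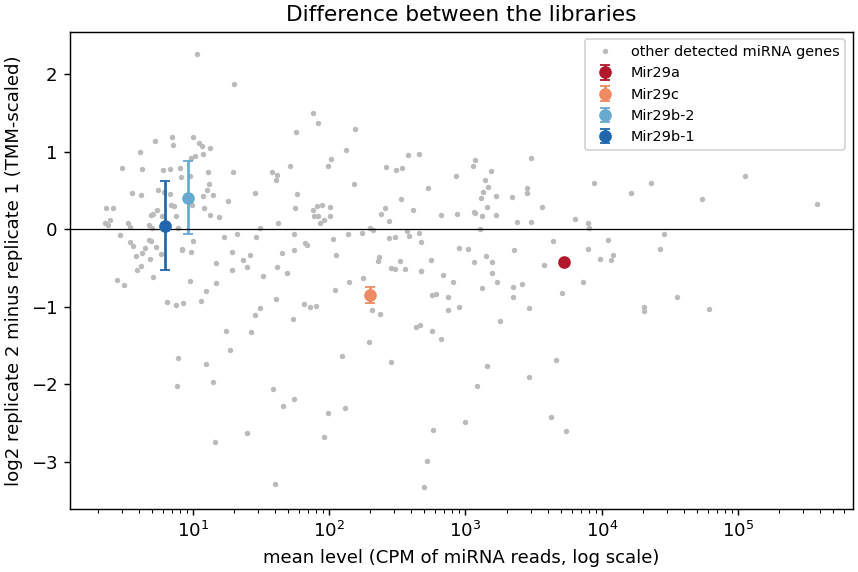
The log2 difference of each detected miRNA gene between the libraries (replicate 2 minus replicate 1, TMM-scaled) against its mean level in CPM on a log scale, with the Mir29 genes in colour and their 95% exact intervals as bars. Mir29a at -0.42 and Mir29c at -0.85 have narrow bars below 0, while the bars of Mir29b-2 and Mir29b-1 cross 0.

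The members also moved relative to each other. Mir29a over Mir29c was 1.35-fold higher in replicate 2 (Fisher's exact test, two-sided, adjusted p = 3.06e-16 over 4 such tests). Mir29c over Mir29b-2 was 2.38-fold lower in replicate 2 (Fisher's exact test, adjusted p = 2.00e-07). For Mir29a over Mir29b-1 the ratio was 1.38-fold lower in replicate 2 (Fisher's exact test, adjusted p = 0.137), and for Mir29b-2 over Mir29b-1 it was 1.28-fold higher (Fisher's exact test, adjusted p = 0.377), and neither passed. These ratios need no scaling between the libraries, and the p-values cover counting error only, not variation between cultures. Beyond counting error, the counts of the chromosome 1 partners thus did not keep 1 ratio in the 2 libraries. For the chromosome 6 pair a change was not detectable at 47 and 62 reads of Mir29b-1. Pairs of the shorter list varied in this too. The log2 ratio of Mir194-2 over Mir192 was -2.26 in replicate 1 and -4.28 in replicate 2. That of Mir125b-2 over Mir99a held, at -6.55 and -6.59. How many pairs moved as far as the chromosome 1 pair was not counted. Other values moved between the same libraries: multimapping reads were 22.01% of reads in replicate 1 and 17.9% in replicate 2, and Mir126a, the endothelial marker, was higher in replicate 1. Their part in the Mir29 differences was not tested.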

How the data were processed

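Small RNA of 2 C2C12 myotube libraries was sequenced, and the authors deposited raw read counts per miRNA gene. The text deposited with the files names mm10 and GENCODE annotation M21. The aligner and counter were not given in the sources used here, nor were filters. The tables have 3 count columns. The second was used, since by its values it is the strand of the gene. The 4 summary lines, which name no gene, were left out of library sizes. They include unmapped reads (22.7% and 23.1% of all reads), multimapping reads (22.01% and 17.9%) and reads outside genes (5.88% and 5.57%).

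Counts were divided by the miRNA reads of the library (CPM). Log2 ratios used a pseudocount of 0.5 reads. The libraries were compared gene by gene with the exact binomial test on TMM effective sizes (edgeR 4.0.16, R 4.3.3) over genes with 10 or more reads, adjusted by Benjamini-Hochberg at 0.05, and member pairs with Fisher's exact test (scipy 1.17.1, Python 3.11.15). With 1 group of 2 libraries no condition could be tested, and an exact permutation test could not go below p = 0.5. The binomial test was checked on simulated counts that held counting error only. It called 4 of 225 genes without a difference, 54 of 97 with a 1.5-fold one and 65 of 99 with a 2-fold one. That check did not cover variation between cultures. DESeq2 1.42.0 size factors, other filters, denominators, pseudocounts and the count column that ignores strand were tried as alternatives.

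The members and lists were chosen with earlier results of these data known. Named were every member, up to 8 detected genes of a list by mean CPM, the 3 genes nearest to each member, its neighbours by mean CPM, and the marker genes. Mir1a-2, Mir133a-1 and Mir133a-2, which were not detected, and the let-7 genes and Mir99a with them in the cluster pairs, were named after their values were seen.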

Additional observations from a re-analysis of the deposited data

Results flagged for a closer look

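Multimapping reads, which enter no gene count, numbered 3378438 in replicate 1 and 3295854 in replicate 2, where a count of 0 would allow up to 3. They stood out as a signal outside the counts per gene. The tables do not split this line by gene, so the number of miR-29b reads in it was not analysed here.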

How the results depend on the processing

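With 2 libraries the levels carry a wide error, and counts of the Mir29b genes lack reads with several positions. Divided by all reads of the library, the means were 2715 CPM for Mir29a, 3.21 for Mir29b-1, 4.78 for Mir29b-2, 101 for Mir29c and 2824 for the family. Without Mir206, the most abundant gene, in the denominator they were 8501, 10.1, 15.1, 316 and 8842 CPM. With strand ignored, the reads of every member were the same, but the denominator was smaller. The means were then 6042 CPM for Mir29a, 7.14 for Mir29b-1, 10.6 for Mir29b-2 and 225 for Mir29c. Leaving out 1 replicate in turn gave 4489 to 6134 CPM for Mir29a, 6.20 to 6.28 for Mir29b-1, 8.05 to 10.4 for Mir29b-2, 140 to 258 for Mir29c and 4646 to 6406 for the family. It gave log2 ratios of 9.47 to 9.94 for Mir29a over Mir29b-1, 3.74 to 4.99 for Mir29c over Mir29b-2, 4.57 to 5.00 for Mir29a over Mir29c and 0.37 to 0.73 for Mir29b-2 over Mir29b-1, and a chromosome 1 share of 3.24% to 4.15%. Between the libraries, 231 genes were called, and 205 to 230 under DESeq2 size factors, library totals and the other filters, with each member on the same side of the threshold. Detected genes numbered 327 at 1 CPM and 193 at 10 CPM. No paired analysis was possible because there was 1 group, and the comparison between libraries could not be made without either of them.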
